A study of Oryctolagus cuniculus with 3 samples.

Results

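Chromatin modifiers and remodellers were followed in day 6 rabbit embryos (Oryctolagus cuniculus) that had been cryopreserved as morulae by either of 2 methods. They were chosen by gene symbol: any named gene with a measured probe whose symbol begins with KDM, KMT, SETD, HDAC, KAT, SIRT, SMARC, CHD, CBX, EZH, DNMT, TET, ING, BRD, PRMT or ARID, or is EED or SUZ12. This gave 72 genes of the 6499 named genes with a measurement, covered by 153 probes, and 1 value was taken per gene from its brightest probe. EED, SUZ12, DNMT1, DNMT3A, HDAC2 and SMARCA4 are among the genes of these families that had no named probe with a value and are not analysed here.

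Morulae were recovered at day 3, frozen slowly or vitrified, and transferred to recipient does, and embryos were collected 3 days later. The compared groups are thus frozen and vitrified embryos, both of them transferred, both at day 6. Vitrification was done at 20 °C with dimethyl sulphoxide and ethylene glycol, first at 12.5% and then at 20% of each. The slow-freezing protocol, the rabbit strain and the number of embryos behind each RNA are not given in the sources used here, and fresh embryos were not analysed here. Each of the 3 Agilent arrays, which the labels call biological replicates, held frozen embryo RNA in one dye and vitrified embryo RNA in the other. Frozen RNA was in Cy5 on replicates 1 and 3 and in Cy3 on replicate 2.

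Every value below is a log2 ratio of frozen over vitrified, so that a value above 0 means a higher level in frozen embryos. For replicates 1 and 3 the direction was read off the scanner signals. For replicate 2 it is likely and not stated: over 10 spike-in probes, whose ratio follows the dye where each mix is labelled with its usual dye, the column correlated at -0.996 with replicate 1 and at -0.998 with replicate 3, which correlated at 0.993 with each other. Values with the sign of replicate 2 turned are therefore given where they matter. As whole embryos were used, fewer cells of a type and less RNA per cell cannot be told apart. Of the lineage markers, 7 of 14 trophoblast, 4 of 12 epiblast and 12 of 18 hypoblast genes had a value. The hypoblast list had medians of 0.01, -0.61 and -0.87 on replicates 1, 2 and 3, the trophoblast list -0.16, 0.24 and 0.05, and the epiblast list -0.17, -0.12 and 0.23. POU5F1, an epiblast regulator, was lower on every array, at -0.75, -0.52 and -1.62, but ESRRB of the same list read -0.20, 0.45 and 1.31. Of the 4 epiblast genes 2 had means above 0 and 2 below. The 5 of 12 blood and immune genes measured had medians of 0.54, -0.24 and -0.01, and the 3 of 9 uterine genes -0.30, -0.01 and -0.91. Of the blood genes, the globins set replicate 1 apart: HBB2 read 2.62, -3.77 and -3.59 and HBA 1.88, -2.23 and -1.79. The part of these markers in the results below was not tested.

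Chromatin modifiers write, erase or read chemical marks on histones and DNA, and remodellers use ATP to slide, evict or exchange nucleosomes. DNA methyltransferases, Polycomb proteins and heterochromatin proteins are best known for silencing. Acetyltransferases and SWI/SNF complexes are best known for opening chromatin, and deacetylases, with the remodellers CHD3 and CHD4, for closing it. Between the morula and the late blastocyst these systems take part in separating trophoblast, epiblast and hypoblast and in resetting the epigenome that the embryo inherits.

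The array reads each gene through probes of 60 bases, and for several genes the reading turned on which stretch of the transcript was probed. The sequences below are those of the genes at the head of the results, and of 2 genes whose neighbouring probes disagreed. They are printed 5′ to 3′ in the sense of the transcript, from the array's own annotation. Capitals mark the bases that both HDAC6 probes share; all other bases are in lower case.
HDAC6 at transcript position 2502: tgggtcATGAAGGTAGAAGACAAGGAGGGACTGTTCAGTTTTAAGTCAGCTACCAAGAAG
HDAC6 at transcript position 2508: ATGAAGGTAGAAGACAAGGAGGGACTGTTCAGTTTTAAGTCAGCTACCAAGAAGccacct
SMARCA2 at transcript position 4568: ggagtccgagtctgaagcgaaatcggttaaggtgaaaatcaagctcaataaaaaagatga
SMARCC1 at transcript position 2550: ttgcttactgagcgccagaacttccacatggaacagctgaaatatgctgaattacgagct
EZH2 at transcript position 2051: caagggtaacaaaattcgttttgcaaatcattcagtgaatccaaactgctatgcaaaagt
EZH2 at transcript position 2123: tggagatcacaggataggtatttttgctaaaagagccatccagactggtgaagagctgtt
KDM6A at transcript position 3743: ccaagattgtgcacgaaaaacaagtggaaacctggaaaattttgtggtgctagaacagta
KDM6A at transcript position 4466: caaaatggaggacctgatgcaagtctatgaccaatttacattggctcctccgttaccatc
KMT2C at transcript position 14166: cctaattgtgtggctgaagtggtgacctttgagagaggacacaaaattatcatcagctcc
KMT2C at transcript position 14247: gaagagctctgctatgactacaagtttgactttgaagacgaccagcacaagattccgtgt

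The array annotation places the HDAC6 probes at chrX:33486216-33486394 and chrX:33486222-33486400 on the plus strand. The SMARCA2 probe lies at chr1:52324885-52327728 on the minus strand and the SMARCC1 probe at chr9:15535923-15535982 on the minus strand. The EZH2 probes lie at chr7:3201156-3201388 and chr7:3201401-3201460 on the plus strand. The KDM6A probes lie at chrX:30392213-30392272 and chrX:30392273-30394094, next to each other on the plus strand. The KMT2C probes lie at chr13:13484204-13484263 and chr13:13482336-13484182 on the minus strand. The sources used here do not give the build of these coordinates. Where the interval is longer than the 60 bases of the probe, as for both HDAC6 probes, the SMARCA2 probe, the first EZH2 probe and the second probes of KDM6A and KMT2C, the probe crosses an exon junction by these coordinates.

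No chromatin gene differed between frozen and vitrified embryos after correction for all 22839 probes tested. The smallest adjusted p among the 72 was 1.00 (limma, Benjamini-Hochberg), and the share of all named genes past an adjusted p of 0.05 was 0%. Without correction, 2 genes had a p under 0.05 in the same limma fit, HDAC6 and SMARCA2, and both were lower in frozen embryos. Over all named genes that share was 4.17%, with 1.43% higher and 2.74% lower, and over all probes 4.47%. Since 2 of 72 is no more than that share, the count is no result about these genes. The genes varied when an array was left out, and each count was below the share of all named genes in the same fit. Without replicate 1 there were 4 (KDM2A, KDM5B and KMT5B higher, SETDB2 lower), against 16% of named genes. Without replicate 2 there were 3 (CHD3, CHD6 and HDAC6, all lower), against 4.57%, and without replicate 3 there were 0, against 1.08%. HDAC6 was thus called in 1 of these 3 fits and SMARCA2 in none. HDAC6 and SMARCA2 are dim and were not tested where dim probes were left out.

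The differences were small. Means over the 3 arrays ran from -0.80 for HDAC6 to 0.31 for KAT2B, and 62 of the 72, or 86.1%, were under 0.25 in size, against 82.6% of all named genes. The median of the 72 was -0.03 and that of all named genes -0.01. Frozen embryos had the higher mean for 31 genes (background 46.8%) and the lower mean for 41. None of the 72 had 1 sign on all arrays together with a mean of at least 1.5-fold, where 0.323% of named genes were higher and 1.2% lower by that rule. At the brightest probes only CBX5 and KDM3A were above 0 on all 3 arrays, where 10.7% of named genes were. Those below 0 on all 3 were SMARCA2, SETD5, SMARCC1, EZH2, KDM7A, ING1, SMARCA1 and ING4, against 11.6% of named genes. For CBX5, KDM3A, SMARCA2 and SMARCA1 another probe did not keep to 1 side of 0. With the sign of replicate 2 turned, each gene of 1 sign named here has that array on the other side of 0.

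**Figure D1:**
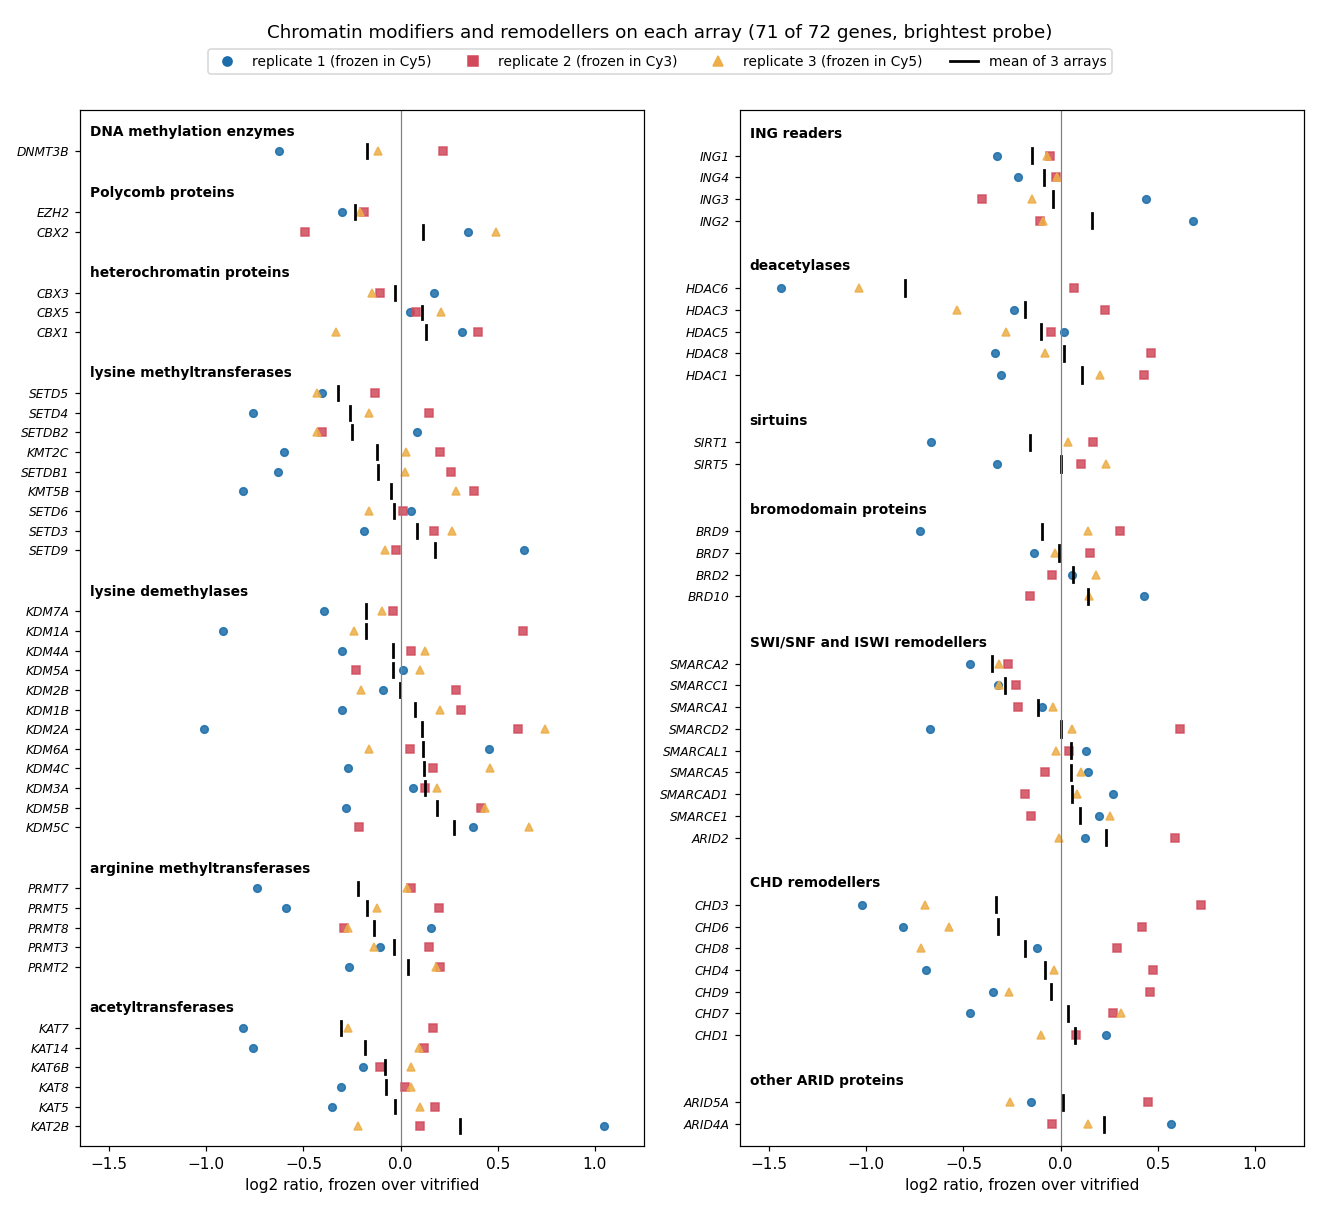
The log2 ratio of frozen over vitrified embryos (x axis) of 71 of the 72 genes (rows, by family and then by mean), with 1 symbol for each of the 3 arrays and a black bar at their mean. In most rows the circle of replicate 1 and the square of replicate 2 lie on opposite sides of 0, as for CHD3 at -1.02 and 0.72; the rows whose symbols keep together include SMARCC1 and EZH2, left of 0, and KDM3A, right of it.

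DNA methylation was represented by DNMT3B alone, a de novo methyltransferase. It read -0.63, 0.22 and -0.12 on replicates 1, 2 and 3, a mean of -0.18 ± 0.42 (SD, n = 3). Its 5 probes, which cover nearly the same bases, had means from -0.19 to -0.15. The disagreement was thus between arrays and not between probes.

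Of the Polycomb proteins, EZH2, which methylates lysine 27 of histone H3 as the catalytic subunit of Polycomb repressive complex 2, was among the steadiest genes measured. Its values were -0.30, -0.19 and -0.21, a mean of -0.23 ± 0.06 (SD, n = 3), or 1.18-fold lower in frozen embryos, with an unadjusted p of 0.122 and an adjusted p of 1.00 (limma). All 3 arrays were below 0 and their spread was small: 324 of the 6499 named genes had a smaller SD. Both rest on the inferred direction of replicate 2. With its sign turned that array is above 0 and the EZH2 mean was -0.11. The probe 72 bases further 5′ read -0.19, -0.17 and -0.01, with a mean of -0.12, and was also below 0 on every array. CBX2, a reader of that mark in Polycomb repressive complex 1, read 0.35, -0.49 and 0.49; it changed sign with replicate 2 and its signal was dim.

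The 3 heterochromatin proteins of the HP1 family, which bind methylated lysine 9 of histone H3, differed little. CBX5 read 0.05, 0.08 and 0.21, a mean of 0.11 ± 0.08 (SD, n = 3), with its 3 probes between 0.11 and 0.14. CBX1 read 0.32, 0.40 and -0.33, and CBX3 0.17, -0.10 and -0.15. Of these only CBX5 kept to 1 side of 0 at its brightest probe. Another CBX5 probe did not, at 0.28, -0.03 and 0.17. The probes named CBX1 carry transcripts placed on 2 chromosomes, so their identity is uncertain.

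Among the 9 lysine methyltransferases, 7 had means below 0 and the median was -0.12. For this and the families below, the share of all named genes with means above 0 was 46.8%. SETD5, a SET domain protein, was the lowest at -0.41, -0.13 and -0.43, a mean of -0.32 ± 0.17 (SD, n = 3) with an unadjusted p of 0.064 (limma). All its arrays were below 0. With the sign of replicate 2 turned the SETD5 mean was -0.24. SETDB2, of the family that methylates lysine 9 of histone H3, read 0.09, -0.40 and -0.43, and SETD9 read 0.63, -0.02 and -0.08, highest of the group at 0.18. In both, replicate 1 stood apart from the other arrays. KMT5B, which methylates lysine 20 of histone H4, read -0.81, 0.38 and 0.28, and SETD4, SETDB1 and KMT2C were likewise low on replicate 1 and above 0 on replicate 2.

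KMT2C, a lysine 4 methyltransferase of the COMPASS family, gave 2 readings on the same array. The brighter probe read -0.60, 0.20 and 0.03, while the probe starting 81 bases further 3′ read 0.47, 0.27 and 0.14. The disagreement was on replicate 1. The second probe was dim, with a mean log2 signal of 5.96 against 9.10, and it crosses an exon junction.

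The 12 lysine demethylases had more means above than below 0, 7 against 5, and a median of 0.09, which with the sign of replicate 2 turned was -0.08. KDM3A, which removes methyl groups from lysine 9 of histone H3, read 0.06, 0.12 and 0.19, a mean of 0.12 ± 0.06 (SD, n = 3). Its other probe read -0.03, 0.30 and 0.06. KDM5C and KDM5B, which demethylate lysine 4 of histone H3, had the highest means, 0.27 ± 0.45 and 0.19 ± 0.41 (SD, n = 3). Both ranged across 0, KDM5C at 0.37, -0.21 and 0.66 and KDM5B at -0.28, 0.42 and 0.44. KDM7A, which demethylates lysines 9 and 27 of histone H3, was the lowest at -0.39, -0.04 and -0.10, a mean of -0.18 ± 0.19 (SD, n = 3), below 0 on every array. Its signal was dim, as was that of KDM5C. KDM1A, the lysine 4 demethylase of the CoREST complex, had nearly the same mean as KDM7A, -0.18, from values of -0.91, 0.63 and -0.24.

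KDM2A, a demethylase of lysine 36 of histone H3 that binds unmethylated CpG islands, showed most plainly how much 1 array decided. It read -1.01, 0.61 and 0.74, a mean of 0.11 ± 0.98 (SD, n = 3) with an adjusted p of 1.00 (limma). Without replicate 1 its mean was 0.67 and its adjusted p 0.0398 (limma), the only one of the 72 to pass, where 3.08% of named genes did. With the sign of replicate 2 turned its mean was -0.29. It is named here after its values were seen.

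KDM6A, the X-linked demethylase of lysine 27 of histone H3, also depended on the probe. The brightest probe read 0.45, 0.05 and -0.16. The probe ending at the base before it read -0.32, 1.06 and 0.03, and another further 5′ gave -0.45, 1.01 and 0.20. This pair read alike and stood on the other side of 0 from the brightest probe on replicate 1. The probes are listed on different transcript models, and all 3 means were above 0, from 0.11 to 0.26.

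KDM4A gave a graded reading along its transcript on replicates 1 and 2. Its 4 probes begin at positions 3044, 3064, 3085 and 3105, so that each shares bases with the next. On replicate 1 they read -0.30, -0.13, 0.18 and 0.42, in that order, while on replicate 2 they read 0.05, 0.04, -0.14 and -0.15. Replicate 3 gave 0.13, 0.34, 0.02 and 0.01, with no steady course. The mean of the brightest was -0.04 and the means of all 4 lay between -0.04 and 0.09. Along 212 transcripts of the whole array whose outermost probes lay 500 bases or more from each other, the median of the 3′-most minus the 5′-most value was 0.25, -0.13 and -0.06 for replicates 1, 2 and 3. The KDM4A probes lie far closer to each other than that. The part of these end differences in the members' values was not tested.

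**Figure D2:**
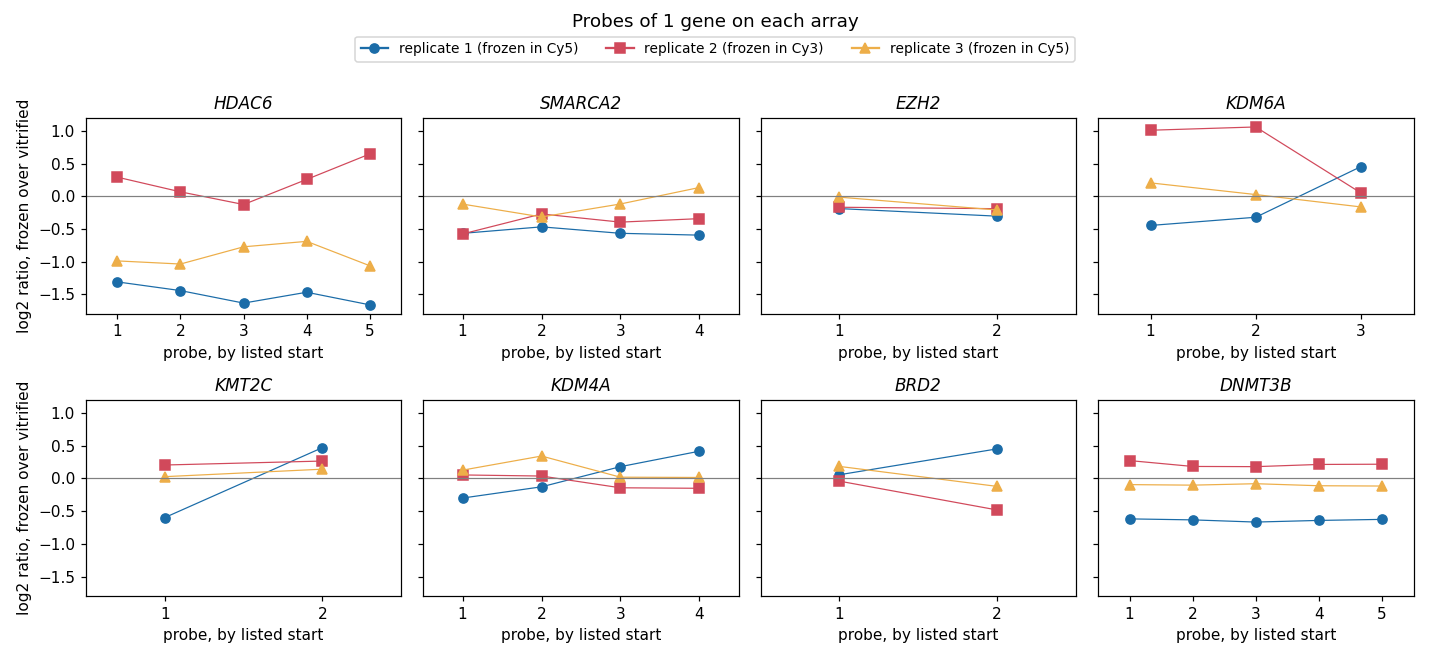
The log2 ratio of frozen over vitrified embryos (y axis) at each probe of 8 genes, with probes in the order of their listed start in the transcript (x axis) and 1 line for each array. The 5 probes of DNMT3B lie on flat lines, whereas the line of replicate 1 crosses 0 between the probes of KDM6A, KMT2C and KDM4A.

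The 5 arginine methyltransferases centred on -0.14, with 4 means below 0. PRMT7 was the lowest at -0.74, 0.05 and 0.03, and PRMT5, the main source of symmetric arginine dimethylation, read -0.59, 0.20 and -0.12, a mean of -0.17 ± 0.40 (SD, n = 3). Each rested on replicate 1 for its sign. PRMT2 had the highest mean, 0.04. The probe named PRMT8 is described in the array annotation as a PRMT1-like gene, so its name is uncertain.

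The acetyltransferases held the highest mean of all. KAT2B, also called PCAF, an acetyltransferase of histone H3, read 1.05, 0.10 and -0.22, a mean of 0.31 ± 0.66 (SD, n = 3) at a dim log2 signal of 5.35. The mean rested on replicate 1, and without that array it was -0.06. KAT7, which acetylates lysine 14 of histone H3 with BRPF scaffolds and histone H4 with JADE scaffolds, was the lowest at -0.81, 0.17 and -0.27, a mean of -0.31 ± 0.49 (SD, n = 3). KAT7 was dim too. Of the 6 acetyltransferases 5 had means below 0 and 5 were above 0 on replicate 2, where 57% of all named genes were.

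The 4 ING proteins read methylated lysine 4 of histone H3 for acetyltransferase and deacetylase complexes. ING1 read -0.33, -0.05 and -0.07 and ING4 -0.22, -0.02 and -0.02. Both were below 0 on every array, by little on replicates 2 and 3. ING2 was the highest at 0.68, -0.10 and -0.09, a mean of 0.16 ± 0.45 (SD, n = 3), with 5 probes between 0.13 and 0.25. The probe named ING1 is described in the annotation as ING2-like, yet read with the opposite sign to ING2 on replicate 1.

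Among the deacetylases, HDAC6 had the largest difference of all 72 genes. It is a mostly cytoplasmic, X-linked enzyme that deacetylates tubulin, and it stood at -1.44, 0.07 and -1.04, a mean of -0.80 ± 0.78 (SD, n = 3), or 1.74-fold lower in frozen embryos. Its unadjusted p was 0.0412 and its adjusted p 1.00 (limma), and 39 of the 6499 named genes had a lower mean. Replicates 1 and 3 were far below 0 and replicate 2, where frozen RNA carried the other dye, was not.

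The 5 HDAC6 probes repeat that reading but are not independent of each other, since they start within 7 bases of each other and share nearly all of the stretch shown in capitals above. Their means ran from -0.84 to -0.63. On replicate 1 all were between -1.66 and -1.31, on replicate 3 between -1.06 and -0.69, and on replicate 2 between -0.13 and 0.65. The signal was dim: at the brightest probe the processed signals were 26.4 for frozen and 71.7 for vitrified embryos on replicate 1 and 30.6 and 62.7 on replicate 3. After normexp background correction and loess normalization of replicates 1 and 3, the mean of those arrays was -0.27, in place of -1.24 without replicate 2. That correction adds an offset of 50 to both channels, which by itself draws the ratios of such dim signals toward 0. How much of the fall it made was not tested. With the sign of replicate 2 turned the mean was -0.85.

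The other deacetylases differed less. HDAC1, a catalytic subunit of the NuRD, Sin3 and CoREST complexes, read -0.31, 0.43 and 0.21, a mean of 0.11 ± 0.38 (SD, n = 3), the highest of the 5. HDAC3 read -0.24, 0.23 and -0.54, HDAC8 -0.34, 0.46 and -0.08, and HDAC5 0.02, -0.05 and -0.28. Apart from HDAC5, each deacetylase was above 0 on replicate 2 and below 0 on replicate 1, as were 40.6% of all named genes. Of the sirtuins, deacylases that depend on NAD, SIRT1 read -0.67, 0.17 and 0.04 and the mitochondrial SIRT5 -0.33, 0.10 and 0.23; neither kept to 1 side of 0.

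The 5 bromodomain proteins, which read acetylated lysines, were among the steadier groups, with a median SD over the arrays of 0.15 against 0.31 for the 72. BRD10 was the highest at 0.14 and BRD9, a subunit of a SWI/SNF complex, the lowest at -0.09, from -0.73, 0.30 and 0.14. BRD2 read 0.06, -0.04 and 0.18 at its brighter probe and 0.45, -0.48 and -0.12 at the other, which shares 40 of its bases.

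Among the SWI/SNF and ISWI remodellers, 3 genes were below 0 on all arrays at their brightest probes. SMARCA2, the BRM ATPase of SWI/SNF, read -0.47, -0.27 and -0.32, a mean of -0.35 ± 0.10 (SD, n = 3), or 1.28-fold lower in frozen embryos, with an unadjusted p of 0.0405 and an adjusted p of 1.00 (limma). All arrays were below 0, and 879 of the 6499 named genes had a smaller SD. With the sign of replicate 2 turned that array is above 0 and the SMARCA2 mean was -0.17. Its 4 probes, offset by single bases, had means from -0.42 to -0.27, and the last of them read 0.13 on replicate 3. Its signal was dim and uneven between arrays, 142 for frozen and 196 for vitrified embryos on replicate 1 but 28.4 and 35.3 on replicate 3. After normexp and loess on replicates 1 and 3 the mean was -0.03, in place of -0.39 without replicate 2. The offset of 50 by itself draws ratios of signals this dim toward 0.

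SMARCC1, a core scaffold subunit of SWI/SNF, read -0.32, -0.23 and -0.31, a mean of -0.29 ± 0.05 (SD, n = 3), 1.22-fold lower, with an unadjusted p of 0.07 and an adjusted p of 1.00 (limma). This was one of the smallest spreads on the array, with 234 named genes below it. With the sign of replicate 2 turned that array is above 0 and the mean was -0.14. The annotation describes the probe as subunit c2 of the complex, so whether it reads SMARCC1 or SMARCC2 is uncertain. After normexp, with the same offset, and loess its mean over replicates 1 and 3 was -0.17, in place of -0.32.

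The rest of this group did not follow these subunits. SMARCA1, an ISWI ATPase on the X chromosome, was slightly below 0 on every array at its brighter probe, with a mean of -0.12 ± 0.09 (SD, n = 3). Its other probe, which was dim, read -0.60, 0.20 and -0.78, a mean of -0.39. SMARCA5, the other ISWI ATPase, read 0.14, -0.08 and 0.10. ARID2, a subunit of the PBAF form of SWI/SNF, had the highest mean at 0.13, 0.59 and -0.01, or 0.24 ± 0.31 (SD, n = 3), and SMARCE1, SMARCD2, SMARCAL1 and SMARCAD1 had means from 0.00 to 0.10. Of the 9 genes 6 were above 0 and 3 below. SMARCAL1 and SMARCAD1 are counted here by symbol only and are not SWI/SNF or ISWI subunits. ARID4A, a subunit of the Sin3 deacetylase complex, and the probe named ARID5A, which the annotation describes as ARID4B-like, had means of 0.22 and 0.01.

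The CHD remodellers showed the strongest split between arrays. All 7 were above 0 on replicate 2, while 1 of 7 was above 0 on replicate 1 and 1 of 7 on replicate 3, with medians of -0.47, 0.42 and -0.27 on replicates 1, 2 and 3. Of all named genes 57% were above 0 on replicate 2, 41.6% on replicate 1 and 53.3% on replicate 3. CHD3, an ATPase of the NuRD complex, read -1.02, 0.72 and -0.70, a mean of -0.33 ± 0.93 (SD, n = 3). CHD4, the other NuRD ATPase, read -0.69, 0.48 and -0.03, and CHD6 -0.81, 0.42 and -0.57. CHD8, a brightly measured gene at a log2 signal of 10.97, read -0.12, 0.29 and -0.72. CHD1, which binds methylated lysine 4 of histone H3, had the highest mean at 0.07. With opposite signs on the arrays of opposite dye, the means of CHD genes depend on the direction of replicate 2: with its sign turned the group median was -0.38 in place of -0.08. CHD3, CHD6 and CHD9 then had an unadjusted p under 0.05 (limma), together with HDAC6, KDM1A, CBX2 and KDM5C. That is 7 of 72 against 4.97% of named genes. None of the 72 passed after adjustment.

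**Figure D3:**
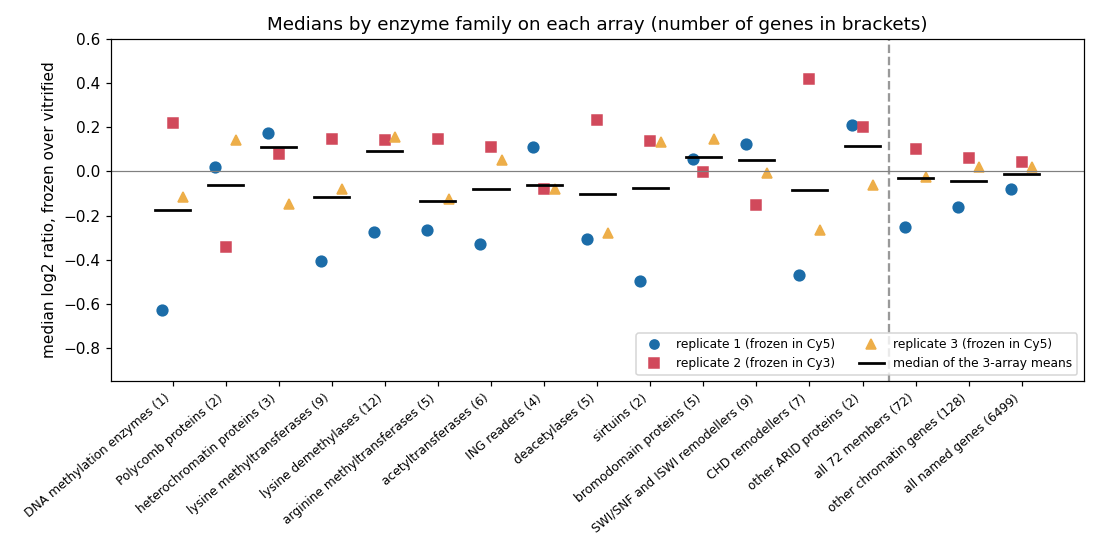
The median log2 ratio of frozen over vitrified embryos (y axis) of each family on each array (symbols) and of the 3-array means (black bars), with the number of genes in brackets; right of the dashed line stand all 72 genes, the other chromatin genes and all named genes. The CHD remodellers are the furthest above 0 on replicate 2, at 0.42, and the 1 DNA methylation gene the furthest below it on replicate 1.

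The same split ran through the 72 as a whole. On replicate 1 their median was -0.25 and 26 were above 0, a background of 41.6%. On replicate 2 the median was 0.10 and 46 were above 0, a background of 57%, and on replicate 3 the median was -0.03 and 33 were above 0, a background of 53.3%. The medians of all named genes were -0.08, 0.04 and 0.02. Most genes therefore read lower in frozen embryos on replicate 1 and higher on replicate 2: 37 of the 72 did both, or 51.4%, against 40.6% of named genes. Only 13.9% of the 72 had 1 sign on all arrays, against 22.4%. Their median SD over the arrays was 0.31 and that of all named genes 0.26. This rests on the inferred direction of replicate 2. With its sign turned, 10 of the 72, or 13.9%, were above 0 on all arrays, against 11.05% of named genes. A further 17, or 23.6%, were then below 0 on all arrays, against 15.25%.

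Across the 72 genes replicate 1 ran against replicate 2, with Pearson r of -0.51, or -0.54 without HDAC6, while over all named genes r was -0.38. Replicates 2 and 3 had an r of -0.04 over the 72 genes and 0.48 over all named genes, and replicates 1 and 3 had 0.18 and 0.00. The 0.18 moved with the genes included: it was 0.06 without HDAC6, 0.14 without HDAC6 and KDM2A, and -0.07 over the 59 genes that were not dim. These correlations are across genes, which share arrays and are not replicates, and are given as a description. Turning the sign of replicate 2 turns the sign of each correlation that includes it.

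**Figure D4:**
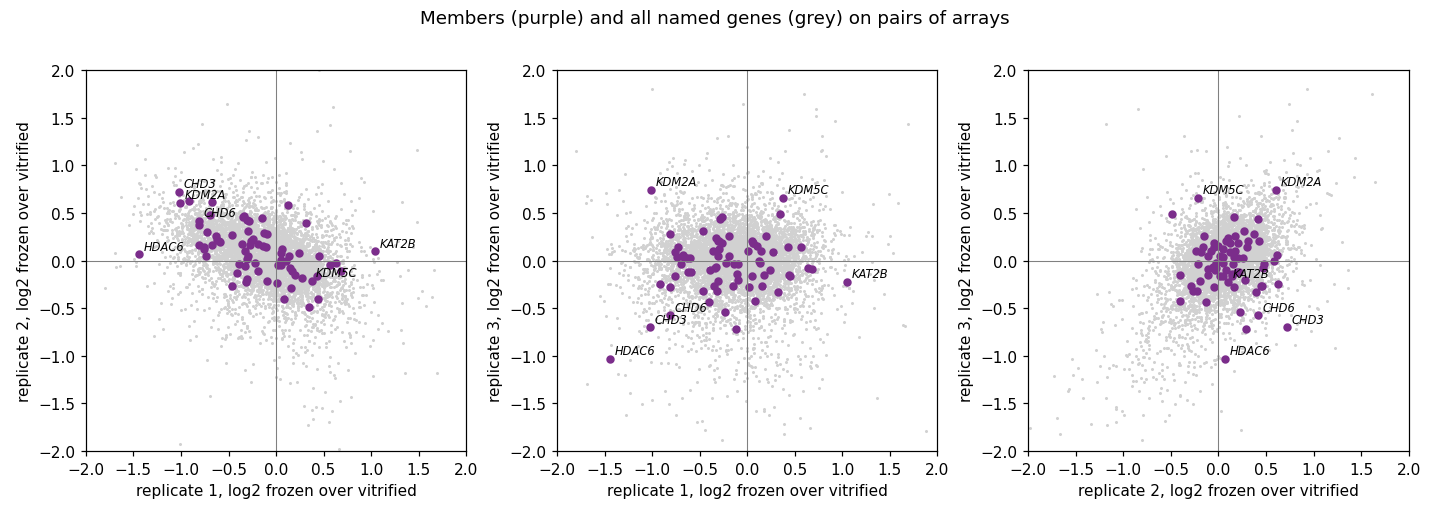
The log2 ratio of frozen over vitrified embryos on 1 array against another for the 72 genes (purple) and all named genes (grey); 18 named genes lie beyond the axis limit of 2 on at least 1 array. The purple points slope downward between replicates 1 and 2 (r of -0.51) and form no slope between replicates 2 and 3 (r of -0.04), where the grey cloud rises.

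Dim genes were spread more widely over the arrays. The 13 genes with a mean log2 signal under 6.90, the lower quartile of all probes, had a median SD of 0.49 and the other 59 a median SD of 0.29. HDAC6, SMARCA2, KAT2B, CHD3, CHD6 and KDM2A were all among the dim, as were KDM5C, KDM7A, KAT7, SIRT1, CBX2, PRMT8 and ARID5A. In 92 pairs of probes of 1 gene that share at least 30 bases, from 19 genes, the median difference within an array was 0.06. It covers only the spread between overlapping probes on 1 hybridisation, and none from dye or labelling. The median difference of a gene between a pair of arrays was 0.32 over the 72. Among the 36 genes with more than 1 probe, the probe means of 30 had a single sign and those of 6 did not. The X chromosome carried 5 of the 72 genes by the array's coordinates, SMARCA1, HDAC6, HDAC8, KDM6A and KDM5C, with a median of 0.02. All 187 named genes placed there had the same median, but HDAC8 is the median gene of both sets. The match is therefore no result.

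Other chromatin genes outside the symbol rule gave the same picture. Of 268 listed symbols 128 had a value: partners of Polycomb and COMPASS, of acetyltransferase and deacetylase complexes, other SWI/SNF, ISWI and INO80 subunits, DNA methylation factors, histone chaperones and histones. Their median was -0.05, with -0.16, 0.06 and 0.02 on replicates 1, 2 and 3, and 54 had means above 0. None passed after adjustment, and 1 was higher and 1 lower at an unadjusted p under 0.05 (limma), shares below those of all named genes.

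The higher one was BCL7A, a small SWI/SNF subunit, at 0.76, 0.21 and 0.53, a mean of 0.50 ± 0.27 (SD, n = 3), with an unadjusted p of 0.0223 and an adjusted p of 0.978 (limma). It was above 0 on every array, on the other side of 0 from SMARCA2 and SMARCC1 of the same complex. With the sign of replicate 2 turned that array is below 0 and the BCL7A mean was 0.36. The lower one was JADE1, a scaffold of KAT7, at -0.53, -0.12 and -0.57, a mean of -0.41 ± 0.25 (SD, n = 3), with an unadjusted p of 0.0423 and an adjusted p of 1.00 (limma). Its signal was dim.

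In each other list the gene with the smallest unadjusted p was as follows. RUVBL1, an ATPase of the INO80 and SWR1 complexes, read -0.64, -0.10 and -0.21, and RIOX2, a histone and ribosome oxygenase, 0.24, 0.14 and 0.38. With replicate 2 as read here, both kept to 1 side of 0, as did TDG, the thymine DNA glycosylase of active demethylation, at -0.98, -0.01 and -0.09. The others did not. L3MBTL3, a Polycomb-group reader, read -0.73, 0.39 and -0.74, MIDEAS, of a deacetylase complex, -0.88, 0.11 and 0.10, and the histone chaperone ANP32A 0.27, 1.07 and -0.05. H3-3B, which encodes the variant histone H3.3, read -0.28, 0.08 and -0.17. NSD3, a lysine 36 methyltransferase, read -0.44, 0.67 and 0.79. Its signal was dim. Without replicate 1 its mean was 0.73 with an adjusted p of 0.0287 (limma), in a fit where 3.08% of named genes passed 0.05. With the sign of replicate 2 turned and all arrays kept, the NSD3 mean was below 0, at -0.11.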

How the data were processed

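Total RNA of day 6 embryos, 100 ng per sample, was labelled and hybridised to 3 rabbit Agilent arrays of 2 channels each. Agilent Feature Extraction 10.10.1.1 gave the spot values, per the submitters' processing notes. Per the file headers, the scanner files of replicates 1 and 3 hold spot intensity values, raw and processed (background-subtracted, detrended and dye-normalized). The authors deposited log2 ratios for all 3 arrays in a table of unstated scale, centring and direction, and flags per spot. The table equalled log2 of processed red over green intensity to within 2.8e-06 and 2.4e-06 on replicates 1 and 3, and its column medians were -0.01, 0.02 and 0.02. Its 22839 probes other than controls are 52.4% of the 43603 on the array. All of them passed the scanner's test of signal over background in each channel of replicates 1 and 3, and none was saturated. The sources used here do not give the filter, and no scanner output of replicate 2 was used. There were 0 further columns of per-sample values.

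Probes were named from the array annotation and the current RefSeq gene table of the rabbit: 14245 probes could be named, for 6499 genes, and 8594 could not. Each probe's mean log2 ratio was tested against 0 by lmFit and eBayes of limma 3.58.1 (R 4.3.3), Benjamini-Hochberg adjusted over all 22839 probes at a threshold of 0.05, with Python 3.11.15 and pandas 2.3.3 for the tables. The same script was tested on simulated data. The 3 arrays limit the precision. A gene's value is that of its probe with the highest mean log2 processed signal, and a dim gene is one under the lower quartile of that signal, 6.90. Names follow this rule: genes of 1 sign on every array, the 6 smallest unadjusted p, the highest and lowest mean of each family, a fixed set of well-studied genes, and the smallest p of each list of other chromatin genes. CHD8, CHD9, CHD6, KDM2A, KDM4A, KDM5B, KMT2C, KMT5B and BRD2 were singled out after their values were seen. 1 gene that the rule names is not reported here. The genes, families and lists were chosen with earlier results of these data known. Alternatives turned the sign of replicate 2, left out each array, centred the arrays, changed the variance prior, added the dye as a covariate, averaged probes, left out dim probes, or used normexp (offset 50) and loess on the scanner files. No genome was used, and coordinates are those of the array annotation.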

Additional observations from a re-analysis of the deposited data

Results flagged for a closer look

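Of 81 genes of the symbol rule with a named probe on the array, 9 have none in the deposited table of ratios, and 5 of these gave a signal well above background on both scanner arrays, in the frozen channel, which was red on both. TET2, a 5-methylcytosine dioxygenase, had a mean log2 processed signal of 5.17 and ARID3C, an ARID transcription factor, 4.85; each was also well above background in the vitrified channel of replicate 3, so in 3 of 4 channels. The acetyltransferase KAT6A had 4.32, the demethylase KDM3B 4.22 at the brighter of its probes and the deacetylase HDAC11 4.16, each in 2 of 4 channels. EZH1, KMT2A, SETD1B and TET3 were well above background in none of the 4 channels. Over all spots the red channel had 66.0% and 68.5% well above background on replicates 1 and 3 and the green channel 54.4% and 58.2%, so the dye and the embryo type cannot be told apart here, and no ratio is given.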

How the results depend on the processing

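Each ratio pairs frozen with vitrified embryos within its array, so the test against 0 is itself paired and no further replicate block was fitted. The count of members past an adjusted p of 0.05 was 0 under every alternative but 1: without replicate 1 it was 1, so that leaving out an array gave 0 to 1. The count with an unadjusted p under 0.05, 2 as reported, was 7 with the sign of replicate 2 turned, 1 with an intensity trend and robust prior and 1 with the dye as a covariate. It was 0 with the mean over all probes, with dim probes left out and with normexp and loess on replicates 1 and 3, and 0 to 4 when an array was left out. The count of 1 sign and at least 1.5-fold, 0 as reported, came to 4 after turning that sign, or 5.56% against 1.17% of named genes. It was 1, 3 and 0 without replicates 1, 2 and 3, or 1.39%, 4.17% and 0% against 4.68%, 4.46% and 1.46% of named genes, a range of 0 to 3. The median of the members, -0.03, ran from -0.11 to 0.04 over the alternatives. With the sign of replicate 2 turned, the family medians that changed sign were the ING proteins at 0.08, Polycomb proteins 0.17, lysine demethylases -0.08 and other ARID proteins -0.018. The CHD median was 0.057 under the dye covariate and the sirtuin median 0.0036 with dim probes left out. Leaving out an array turned 5 family medians without replicate 1 (CHD, DNA methylation, acetyltransferases, arginine methyltransferases and sirtuins), 2 without replicate 2 (ING and Polycomb) and 1 without replicate 3 (lysine demethylases).

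Single genes changed sign as follows. With the sign of replicate 2 turned the values were SMARCA1 0.029, SETDB2 0.021, ARID2 -0.16, ARID5A -0.29, CBX1 -0.14, CBX3 0.043, HDAC1 -0.18, PRMT2 -0.096, SIRT5 -0.066, ANP32A -0.28, NSD3 -0.11, KDM2A -0.29, KDM5B -0.087. Under the dye covariate they were BRD9 0.0055, CBX2 -0.037, KDM1A 0.025, CHD4 0.057, KMT5B 0.057, CHD9 0.077. Averaged over all probes of a gene they were CBX3 0.014, KMT2C 0.085, KDM4A 0.039, CHD9 0.099. After normexp and loess on replicates 1 and 3 they were ARID5A -0.096, HDAC1 -0.074, KAT2B -0.026, MIDEAS 0.011, H3-3B 0.053, KMT5B 0.061. With each array centred on its median, SIRT5 was at -0.0039.

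When 1 array was left out, the values of the genes that changed sign ran as follows: ARID5A -0.21 to 0.15, BRD10 -0.0054 to 0.29, BRD9 -0.29 to 0.22, CBX1 -0.0060 to 0.36, CBX2 -0.073 to 0.42, CBX3 -0.13 to 0.034, CHD1 -0.010 to 0.16, CHD3 -0.86 to 0.011, CHD4 -0.36 to 0.22, CHD8 -0.42 to 0.085, CHD9 -0.31 to 0.097, DNMT3B -0.37 to 0.050, HDAC1 -0.052 to 0.32, ING2 -0.097 to 0.30, KAT2B -0.061 to 0.57, KDM1A -0.58 to 0.19, KDM2A -0.20 to 0.67, KDM4A -0.12 to 0.090, KDM6A -0.056 to 0.25, KMT2C -0.29 to 0.12, KMT5B -0.26 to 0.33, MIDEAS -0.39 to 0.11, PRMT2 -0.042 to 0.19, PRMT5 -0.36 to 0.038, PRMT7 -0.35 to 0.043, SETD9 -0.052 to 0.30, SIRT1 -0.32 to 0.10, SIRT5 -0.11 to 0.17. In 20 of the 58 named genes the array that turned the sign was replicate 1. The cause was not tested. Signal over background limits the dim genes, HDAC6, SMARCA2, KAT2B, CHD3 and CHD6 among them.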
